A study of Mus musculus with 14 samples.

Results

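The genes described here encode the enzymes that hydroxylate collagen chains and cross-link collagen and elastin. They were taken by name from both deposited count tables, and the list held 4 lysyl oxidases (Lox, Loxl1, Loxl2 and Loxl3), 3 prolyl 4-hydroxylase alpha subunits (P4ha1, P4ha2 and P4ha3) and 3 lysyl hydroxylases (Plod1, Plod2 and Plod3). All 10 were found among the 42396 genes listed, and 9 of them had a level high enough to be tested in both experiments. P4ha3 did not reach 1 CPM in any heart, where CPM are reads scaled to a common library total.

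The data were poly(A) RNA-seq counts from whole hearts of 14 female mice. Every mouse was FS6KD, a gene-trap knockdown of the respiratory complex I subunit gene Ndufs6 on a mixed C57BL/6J and 129/Ola background, so none of the groups had an intact Ndufs6 gene. In the knockout experiment, 4 Atf3+/+FS6KD hearts were compared with 4 Atf3-/-FS6KD hearts at 12 weeks of age, in which exons of Atf3, a stress-induced transcription factor gene, had been deleted by CRISPR-Cas9 in founders that were then bred. In the AAV experiment, FS6KD mice had received MyoAAV2-shCtrl (n = 3) or MyoAAV2-shAtf3 (n = 3) as neonates, and hearts were collected 12 weeks after the injection. The MyoAAV2 capsid carries its cargo, here a short hairpin RNA against Atf3 or a control hairpin, mainly into muscle cells, so hearts in this experiment kept the Atf3 gene, and cells outside the reach of the virus kept its transcript. The questions were whether loss of Atf3 in the whole animal, or its knockdown in muscle, changed the FS6KD heart.

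Collagen is made as procollagen in the endoplasmic reticulum, where prolyl 4-hydroxylases hydroxylate prolines so that the triple helix is stable at body temperature, and lysyl hydroxylases hydroxylate lysines that later carry sugars or take part in cross-links. Outside the cell, lysyl oxidases oxidise lysines and hydroxylysines of collagen and elastin to aldehydes, from which covalent cross-links form. In the heart these genes are known mainly from fibroblasts, and cross-linked collagen stiffens the muscle wall. Fewer cells of a type and less RNA per cell cannot be told apart in such whole-heart samples.

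Some facts about the libraries bear on what follows. The libraries held 33914931 to 134920820 counts in the knockout experiment, where replicates 3 and 4 of each group were the deeper ones (at least 112904390 counts), and 30085432 to 40534913 counts in the AAV experiment. Atf3 itself was not lower in either comparison. It averaged 11.5 ± 9.53 CPM (SD, n = 4) in Atf3+/+ and 25.1 ± 9.64 CPM in Atf3-/- hearts (adjusted p = 0.480), and 12.5 ± 2.13 CPM (SD, n = 3) in shCtrl and 16.6 ± 4.52 CPM in shAtf3 hearts (adjusted p = 0.420). A count over the whole gene can still collect reads from exons outside a deletion, so it does not check the knockout. In the AAV experiment no knockdown of Atf3 was seen in the libraries as labelled, and every AAV result below carries that limit. In the AAV experiment the titles and the short descriptions of the samples disagree, because the count columns described as Atf3 belong to samples titled shCtrl and those described as Cont to samples titled shAtf3. Titles and genotype fields decided the groups here, which is why each such heart is spoken of as labelled, and every direction in the AAV experiment would turn round if the column names were right instead. Cardiomyocyte markers summed to 50723 to 71980 CPM across the 14 hearts, as the tissue label says.

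Levels are given first as CPM per kilobase of annotated exon, normalised by the trimmed mean of M values (TMM), which is the only scale on which different genes can be set side by side. In Atf3+/+ hearts Loxl1, an oxidase best known from elastic fibres, had the highest level, 16.7 ± 5.63 CPM per kb (SD, n = 4), followed by P4ha1, the widely expressed catalytic subunit of prolyl 4-hydroxylase, at 13.3 ± 1.76. Their ranges overlapped (9.91 to 22.7 and 11.9 to 15.9), so this pair could not be ordered. Plod1, the lysyl hydroxylase of the collagen helix, was at 9.13 ± 0.590 in its own entry of the tables and at 14.7 ± 0.881 (range 13.5 to 15.3) when reads of a second entry under its symbol were added. It thus stood in the third place by the first count and in the second by the other, where its range lay within those of Loxl1 and P4ha1. Plod2, which acts on the telopeptides at the chain ends, was at 7.42 ± 1.08. P4ha2, the second widely used prolyl 4-hydroxylase subunit, stood at 7.08 ± 0.399, and Plod3, which also transfers sugars to hydroxylysine, at 6.13 ± 0.353. The range of P4ha2 (6.75 to 7.59) lay within that of Plod2 (6.53 to 8.77). Loxl2, Loxl3 and Lox were lower, at 4.94 ± 0.618, 2.72 ± 0.343 and 1.48 ± 0.546 CPM per kb, with ranges that did not overlap each other. P4ha3, a subunit with little expression in most adult tissues, was at 0.073 ± 0.013 CPM per kb.

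In the other groups the order was similar, although the tables were normalised separately and were not compared by a test. With each gene counted in its own entry over all its annotated exons, Loxl1 and P4ha1 held the top 2 places and P4ha3 the last in each of the 4 groups. With both entries of Plod1 this held in each group except Atf3+/+, where Plod1 took the second place. Among libraries labelled shAtf3, P4ha1 (13.9 ± 2.17 CPM per kb, SD, n = 3) stood just above Loxl1 (13.3 ± 0.764), and their ranges overlapped. In the Atf3-/- group Lox (3.22 ± 0.730, n = 4) and Loxl3 (3.16 ± 0.452) changed places, again with overlapping ranges, but not when the second entry of Loxl3 was added (3.32) or with the longest transcript. The middle places changed as well, all with overlapping ranges: in Atf3-/- hearts Plod3 (6.73 ± 0.389) stood above P4ha2 (6.66 ± 0.417) and Plod2 (6.41 ± 0.956), and in hearts labelled shCtrl Loxl2 (7.85 ± 0.980) stood above P4ha2 (7.14 ± 0.403) and Plod3 (6.68 ± 0.311). The order also rests on the exon length used. With the longest transcript in place of all annotated exons, Atf3+/+ hearts had Plod1 at 15.1, P4ha2 at 14.4 and P4ha1 at 13.5 CPM per kb, which put P4ha1 in the fourth place, and in hearts labelled shAtf3 Plod1 came second at 13.33, just above Loxl1 at 13.31. P4ha3 was last by every one of these counts.

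**Figure D1:**
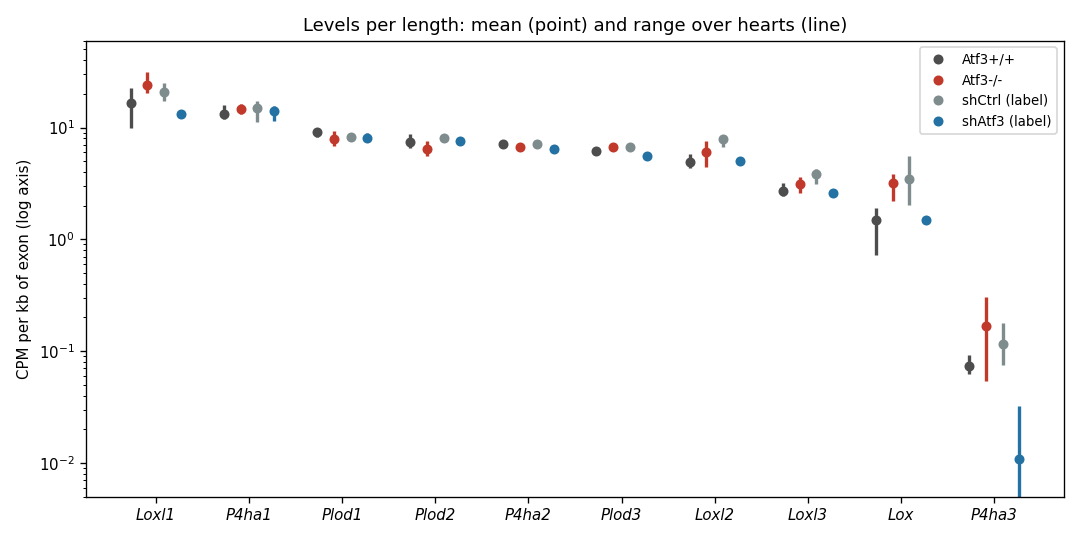
Level per kilobase of annotated exon (CPM per kb, log axis) of the 10 genes in Atf3+/+ (n = 4), Atf3-/- (n = 4), labelled shCtrl (n = 3) and labelled shAtf3 (n = 3) hearts. Points are group means and lines the range over hearts; Loxl1 and P4ha1 lie at the top in each group when Plod1 is counted in its first entry alone, as here, P4ha3 lies lowest, and its line for labelled shAtf3 runs down to hearts with no reads.

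Among the 9 members tested, Lox had the largest log2 difference in both comparisons. In GENCODE's annotation of GRCm38 Loxl1 lies at chr9:58287738-58313186, Loxl2 at chr14:69609068-69695834, Loxl3 at chr6:83034173-83052562 and Lox on chromosome 18. Across the knockout groups Lox, the founding lysyl oxidase, was higher in Atf3-/- hearts by 2.16-fold, a difference that did not pass the test across all genes. Lox was at 9.09, 3.48, 8.90 and 6.79 CPM in the 4 Atf3+/+ hearts and at 15.5, 17.2, 18.3 and 10.4 CPM in the 4 Atf3-/- hearts. The lowest Atf3-/- heart was above the highest Atf3+/+ heart, so the groups did not overlap. The log2 difference came to 1.11 (SE 0.28). Its unadjusted p was 0.0034 and its adjusted p 0.317 in edgeR's quasi-likelihood test with Benjamini-Hochberg adjustment over 15592 genes. None of the genes tested had an adjusted p below 0.05 in this comparison. At an unadjusted p below 0.05 there were 10.1% of all genes (5.41% higher and 4.69% lower), and Lox was the 1 member of 9 among them. Groups without overlap were found for 5.71% of all genes (3.08% with Atf3-/- higher, 2.63% with it lower) and for 1 member, Lox. DESeq2, which called 1.34% of all genes, called Lox (log2 fold change 1.11, adjusted p = 0.00981) and none of the other members, whereas limma-trend called no gene.

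Loxl1 was at 48.1, 32.7, 74.8 and 64.9 CPM in Atf3+/+ hearts and at 67.5, 73.1, 104 and 69.8 CPM in Atf3-/- hearts. Atf3-/- replicate 3 stood apart from the other hearts of its group, and the 2 groups overlapped. The log2 fold change was 0.51 (SE 0.24, adjusted p = 0.525, edgeR). Loxl2, an oxidase of fibrillar and basement membrane collagen, averaged 26.7 ± 3.34 and 33.0 ± 6.99 CPM (SD, n = 4 each), a log2 difference of 0.30 (SE 0.15). Loxl3, a close relative of Loxl2, averaged 12.5 ± 1.58 and 14.5 ± 2.08 CPM, a log2 difference of 0.21 (SE 0.13). Both had overlapping groups and adjusted p-values of 0.544 and 0.606. The libraries of different depth gave different sizes: within the shallower hearts (n = 2 each) the log2 difference was 1.37 for Lox and 0.80 for Loxl1, and within the deeper hearts (n = 2 each) it was 0.87 and 0.31.

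In the AAV experiment all 4 lysyl oxidases were lower in the libraries labelled shAtf3, without overlap between groups, and Loxl2 passed the test. Groups of 3 did not overlap for 18.4% of all genes tested, 9.94% with labelled shAtf3 lower and 8.48% with it higher. Loxl2 was at 44.6, 46.2 and 36.4 CPM in the hearts labelled shCtrl and at 27.0, 25.8 and 28.2 CPM in those labelled shAtf3. The 3 hearts labelled shAtf3 lay within a narrow band, and every heart labelled shCtrl lay above it. Loxl2 thus fell 1.57-fold, by 0.65 on the log2 scale (SE 0.10). Its adjusted p was 0.0299 (edgeR). Of the 15225 genes tested, 82 or 0.539% were called, 69 of them (0.453%) lower and 13 (0.0854%) higher, and Loxl2 was 1 member of 9 called. The call was lost (adjusted p 0.0591 to 0.159) when any heart except labelled shCtrl replicate 3 was left out, while the log2 difference stayed between -0.58 and -0.75.

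Lox was at 26.8, 12.98 and 9.77 CPM in hearts labelled shCtrl and at 7.38, 7.34 and 6.73 CPM in those labelled shAtf3. Replicate 1 labelled shCtrl was far above the next heart, while the hearts labelled shAtf3 were nearly equal, and the groups did not overlap. The log2 fold change was -1.21 (SE 0.32, adjusted p = 0.178), and without that heart it was -0.67. Loxl1 was at 83.3, 64.5 and 56.5 CPM against 45.5, 41.0 and 45.2 CPM. Its groups did not overlap either, and the log2 difference was -0.63 (SE 0.13), at an adjusted p of 0.0799. Loxl3 was at 19.5, 18.8 and 14.3 CPM against 11.6, 12.0 and 12.3 CPM, which again did not overlap, and the log2 fold change was -0.56 (SE 0.12, adjusted p = 0.0945). DESeq2, which called 2.02% of all genes, called Loxl1, Loxl2 and Loxl3, and limma-trend (0.558% of all genes) called Loxl2. With a heart left out the edgeR adjusted p ran from 0.0231 to 0.462 for Lox, from 0.00944 to 0.311 for Loxl1 and from 0.00433 to 0.307 for Loxl3. The low ends came without labelled shCtrl replicate 3, the lowest of its group in all 4 genes, where 1.88% of all genes were called.

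**Figure D2:**
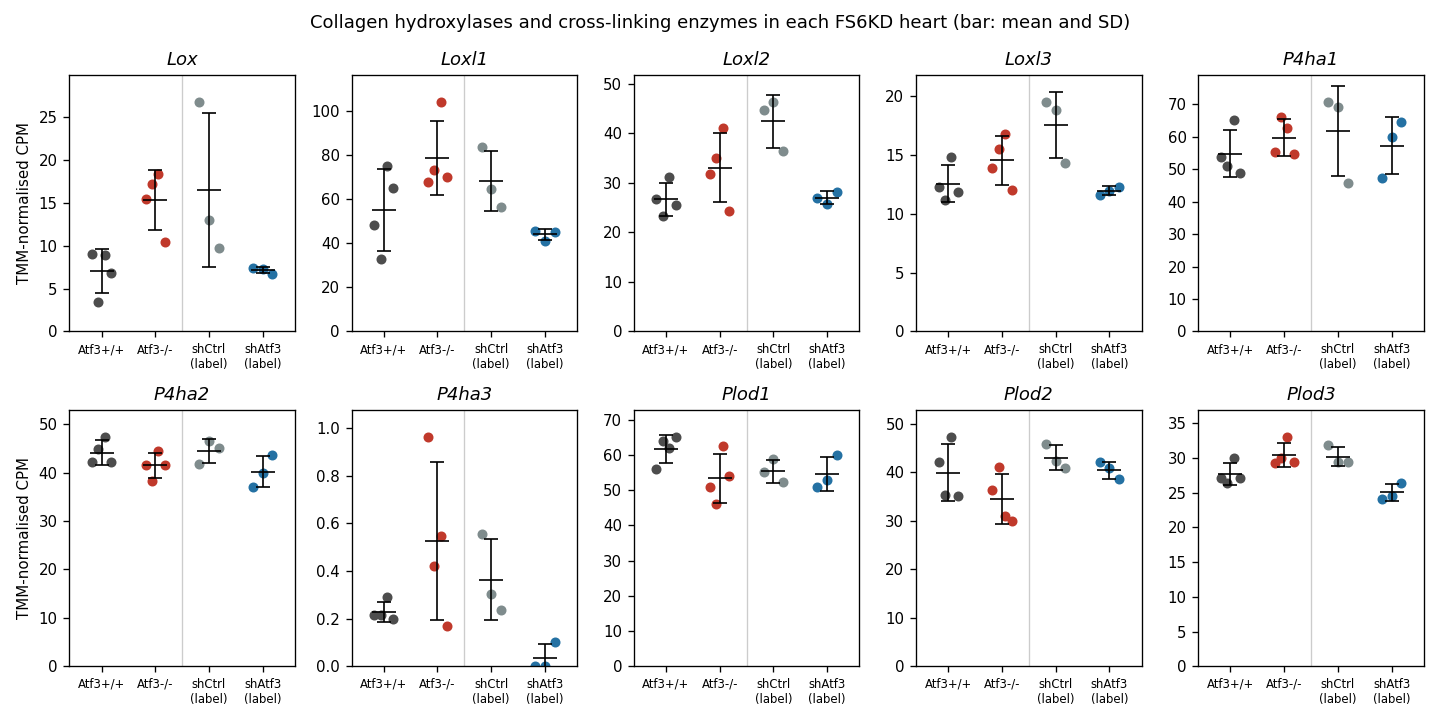
TMM-normalised CPM of each of the 10 genes, with 1 point per heart, in Atf3+/+ and Atf3-/- hearts (n = 4 each) and in hearts labelled shCtrl and shAtf3 (n = 3 each). Horizontal marks are means and bars the SD; each panel has its own axis from 0. The 4 lysyl oxidases, Plod3 and P4ha3 separate the AAV groups, as do 18.4% of all genes tested. Lox separates the knockout groups, as do 5.71% of all genes tested.

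Summed over the 4 genes their reads came to 70.7 to 130 CPM in Atf3+/+ and 116 to 180 CPM in Atf3-/- hearts, and to 117 to 174 CPM and 86.0 to 92.4 CPM in the shCtrl and shAtf3 hearts by label. Of the summed level per kb, with the second entry of Loxl3 included, Loxl1 held 57.4% to 65.2% in the group means. The Lox share of that level averaged 5.63% ± 1.58 in Atf3+/+ and 8.83% ± 1.40 in Atf3-/- hearts (SD, n = 4), and 9.19% ± 3.18 and 6.65% ± 0.539 in hearts labelled shCtrl and shAtf3 (SD, n = 3). The shares were not tested.

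Fibroblast marker levels were examined beside the lysyl oxidases. All 10 listed fibroblast markers were tested, and in the AAV comparison 10 of 10 had a log2 difference below 0 (median -0.43), 9 with an unadjusted p below 0.05 and 1, Dpt, called by edgeR and limma, against 8 by DESeq2. Their summed level was 2553 to 2736 CPM in hearts labelled shAtf3, below the 3034 to 3920 CPM of the shCtrl label. Of 9 activated fibroblast markers, 9 were below 0 (median -1.14), with Postn and Ccn2 called by edgeR and limma and 4 by DESeq2, and the summed level went from a range of 667 to 1170 CPM to one of 453 to 516 CPM. In the knockout comparison the 10 fibroblast markers were above 0 (median 0.28, 6 with an unadjusted p below 0.05, none called by edgeR, DESeq2 or limma), and their sums of 2333 to 3417 CPM and 2935 to 3519 CPM overlapped. Of the 9 activated fibroblast markers 7 were above 0 and 2 below in the knockout comparison (median 0.58, from -1.07 to 1.48), 4 with an unadjusted p below 0.05 and all of these higher, none called by edgeR or limma and 1, Cthrc1, by DESeq2. Their sums of 478 to 697 CPM in Atf3+/+ and 398 to 750 CPM in Atf3-/- hearts overlapped, with nearly equal means of 564 and 575 CPM. Of 10 macrophage markers 9 were below 0 in the AAV comparison (median -0.21), and 5 were lower at an unadjusted p below 0.05. Their sums of 529 to 594 CPM (shCtrl label) and 474 to 525 CPM (shAtf3 label) did not overlap. In the knockout comparison 9 were above 0 (median 0.29), 2 of them at an unadjusted p below 0.05. Those sums overlapped, at 357 to 438 CPM in Atf3+/+ and 385 to 564 CPM in Atf3-/- hearts. No macrophage marker was called by edgeR, DESeq2 or limma in either comparison. Medians were 0.09 (AAV) and -0.16 (knockout) for cardiomyocyte markers, and 0.04 and 0.07 for endothelial markers. Valve and cartilage-like matrix markers (7 of 9 tested) had medians of -0.47 and 0.32, with Comp and Fmod called lower in the AAV comparison. Atrial markers had medians of -0.70 and 0.08, with Dkk3 called lower in the AAV comparison, but only 4 of 7 were tested in each. In the knockout comparison Myl7, Sln and Bmp10 were too low to be tested, so these medians do not show an atrial part. The medians of the remaining lists were -0.04 and 0.11 for mural cells, 0.04 and -0.20 for red blood cells, -0.48 (1 tested) and 0.59 (2 tested) for lymphocytes, and 0.33 in the knockout comparison for the 1 epicardial marker tested and 0.10 for the 3 adipocyte markers. No AAV median is given for the last 2 lists, because in each of them 2 of the 3 genes tested averaged below 1 CPM in both groups and passed the filter through 1 or 2 hearts, and their abundant members had log2 differences of -0.04 (Wt1, epicardial) and 0.17 (Plin4, adipocyte). The edgeR calls of Dpt, Postn, Ccn2, Comp, Fmod and Dkk3 were each lost when single hearts were left out (highest adjusted p 0.108 for Comp and 0.229 for Ccn2). The part of any of these cell types in the differences of the lysyl oxidases was not tested.

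The prolyl 4-hydroxylase alpha subunits P4ha1 and P4ha2 showed no difference between groups that passed the test. Each pairs with protein disulfide isomerase, the product of P4hb, to form the active enzyme. P4ha1 was at 53.9, 51.0, 65.2 and 49.0 CPM in Atf3+/+ hearts and at 55.5, 66.2, 62.7 and 54.6 CPM in Atf3-/- hearts. The groups overlapped, with a log2 difference of 0.12 (95% interval -0.08 to 0.33, adjusted p = 0.701). The intervals of fold changes given here are approximate and too narrow for so few hearts. In the AAV experiment it was at 70.7, 69.1 and 45.8 CPM against 47.4, 59.9 and 64.7 CPM. Both groups spread widely and overlapped, and the log2 fold change was -0.11 (interval -0.44 to 0.22, adjusted p = 0.840). P4ha2 varied less, at 42.1 to 47.4 CPM in Atf3+/+ and 38.2 to 44.6 CPM in Atf3-/- hearts (log2 fold change -0.09, interval -0.22 to 0.04, adjusted p = 0.664), and at 41.8 to 46.7 CPM and 37.1 to 43.7 CPM in hearts labelled shCtrl and shAtf3 (-0.15, interval -0.30 to 0.01, adjusted p = 0.474). P4hb itself was at 250.7 ± 11.9 and 254 ± 8.33 CPM (SD, n = 4) in the knockout experiment and at 264 ± 7.79 and 236 ± 8.17 CPM (SD, n = 3) in the AAV experiment (adjusted p = 0.918 and 0.289).

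P4ha3 was too low for the main test but differed in counts between the AAV groups. It had 23, 12 and 9 reads in the shCtrl hearts by label, and 0, 0 and 3 reads in the shAtf3 hearts. Summed over each group these were 44 and 3 reads, a ratio of 11.9 per library total with an exact 95% interval of 3.82 to 59.9 that covers counting error only. With no filter on low counts the log2 fold change was -3.38 and passed the test (adjusted p = 0.0239, edgeR), as did 1.13% of all genes in that setting. There neither the knockout comparison (1.09, adjusted p = 0.599) nor the interaction (4.51, adjusted p = 0.0872) passed, in which 0.00684% and 0.203% of all genes were called. In the knockout experiment P4ha3 had 9, 7, 34 and 26 reads in Atf3+/+ hearts, 0.196 to 0.291 CPM, and 34, 16, 64 and 21 reads in Atf3-/- hearts, 0.168 to 0.962 CPM. The knockout groups overlapped, with Atf3-/- replicate 4 below every Atf3+/+ heart.

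No lysyl hydroxylase passed the test in either comparison, and Plod3 separated the AAV groups. Plod3 was at 31.8, 29.4 and 29.4 CPM in hearts labelled shCtrl and at 24.1, 24.6 and 26.4 CPM in those labelled shAtf3. The groups did not overlap, and the log2 fold change of -0.27 (SE 0.07) had an unadjusted p of 0.0038 and an adjusted p of 0.168. In the knockout experiment Plod3 was at 26.5 to 30.04 CPM in Atf3+/+ and 29.2 to 33.0 CPM in Atf3-/- hearts, which overlapped (log2 fold change 0.14, SE 0.07, adjusted p = 0.529). Plod2 was at 42.1, 35.4, 47.3 and 35.2 CPM against 36.3, 41.1, 31.0 and 29.9 CPM in the knockout experiment (log2 fold change -0.21, SE 0.13, adjusted p = 0.608). The groups overlapped, and the log2 difference was -0.44 within the deeper hearts but 0.00 within the shallower ones. Between the AAV groups Plod2 averaged 43.1 ± 2.57 and 40.5 ± 1.76 CPM (SD, n = 3; log2 fold change -0.09, SE 0.07, adjusted p = 0.642).

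Plod1 needs its reads counted over 2 entries. The tables hold a second entry of the gene under the same symbol with a suffix, without a position, and reads that match both are split between them. Plod1 alone was at 56.1, 64.0, 62.0 and 65.1 CPM in Atf3+/+ hearts and at 50.8, 46.0, 62.5 and 54.1 CPM in Atf3-/- hearts, with overlapping groups and a log2 difference of -0.21 (SE 0.09; adjusted p 0.50). For the second entry the log2 difference was 0.08 (SE 0.07) at an adjusted p of 0.742, and for both merged it was -0.10 at an adjusted p of 0.673. The second entry took 37.3% to 38.5% of the reads of both in Atf3+/+ hearts, 38.2% to 39.1% in hearts labelled shCtrl and 37.9% to 39.5% in those labelled shAtf3. In the Atf3-/- hearts it took 45.1%, 44.6%, 37.2% and 44.3% for replicates 1 to 4. Replicates 1, 2 and 4 were thus above all other hearts by more than the exact 95% binomial intervals, whose half-width was at most 1.86 percentage points and which cover counting error only. Nppb, the natriuretic peptide gene listed near Plod1 in the tables, showed the same 3 hearts apart: its second entry took 43.1% to 44.8% of its reads there, against 31.2% to 32.3% in the other 11 hearts. The level of Plod1 alone is therefore uncertain in the knockout experiment. Between the AAV groups Plod1 averaged 55.3 ± 3.32 and 54.6 ± 4.72 CPM (SD, n = 3; log2 fold change -0.02, interval -0.17 to 0.13, adjusted p = 0.948). The second entry of Loxl3 took only 3.57% to 5.84% of its reads.

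**Figure D3:**
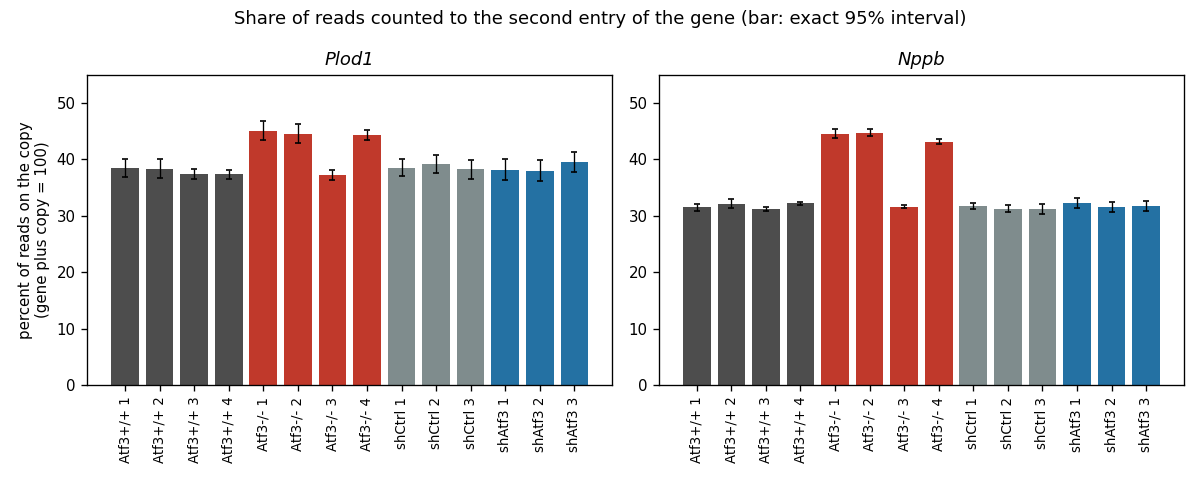
Percent of the reads of a gene that were counted to its second entry, for Plod1 and for Nppb, in each of the 14 hearts. Bars start at 0 and error bars are exact 95% binomial intervals; Atf3-/- replicates 1, 2 and 4 stand above the other hearts for both genes (43.1% to 45.1%).

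Set side by side, 5 of the 9 members tested (Lox, Loxl1, Loxl2, Loxl3 and Plod3) were lower in hearts labelled shAtf3 with no overlap of the groups. The AAV groups did not overlap for 18.4% of all genes, 9.94% with labelled shAtf3 lower and 8.48% with it higher. These 5 members also had an unadjusted p below 0.05, as had 12.7% of all genes, 7.65% lower and 5.05% higher. All 9 had a log2 fold change below 0 (median -0.27, against -0.00 over all genes tested), as had 50.9% of all genes, and 49.1% lay above 0. In the knockout comparison 6 were above 0 and 3 below (median 0.14, against 0.00 over all genes, of which 50.2% lay above and 49.8% below). Whether the effect of the Atf3-/- genotype differed from that of the labelled shAtf3 vector was tested as an interaction over all 14 hearts. The difference between the 2 log2 fold changes, knockout minus AAV, was 2.31 for Lox (SE 0.48, adjusted p = 0.0714), 1.14 for Loxl1 (SE 0.33, adjusted p = 0.113), 0.95 for Loxl2 (SE 0.21, adjusted p = 0.0845), 0.76 for Loxl3 (SE 0.19, adjusted p = 0.0877) and 0.40 for Plod3 (SE 0.09, adjusted p = 0.0855). For the remaining members it lay between -0.19 and 0.23, with adjusted p-values of at least 0.497. None of the 9 members was called by edgeR, while 0.166% of the 15708 genes were. At an unadjusted p below 0.05 it was 5 of 9, against 17.0% of all genes. DESeq2 called these 5 and 4.27% of all genes, and limma-trend called none of the members and 0.306% of all genes. The experiments share no libraries. These differences rest wholly on the titles. With the AAV groups exchanged, as the column names would have it, the difference was -0.10 for Lox, -0.12 for Loxl1, -0.34 for Loxl2, -0.34 for Loxl3 and -0.13 for Plod3, with unadjusted p-values from 0.0876 to 0.839 (edgeR). In that case 0 of the 15708 genes were called, 4.14% had an unadjusted p below 0.05, and P4ha2 was the 1 member among them (-0.23, unadjusted p = 0.0407).

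**Figure D4:**
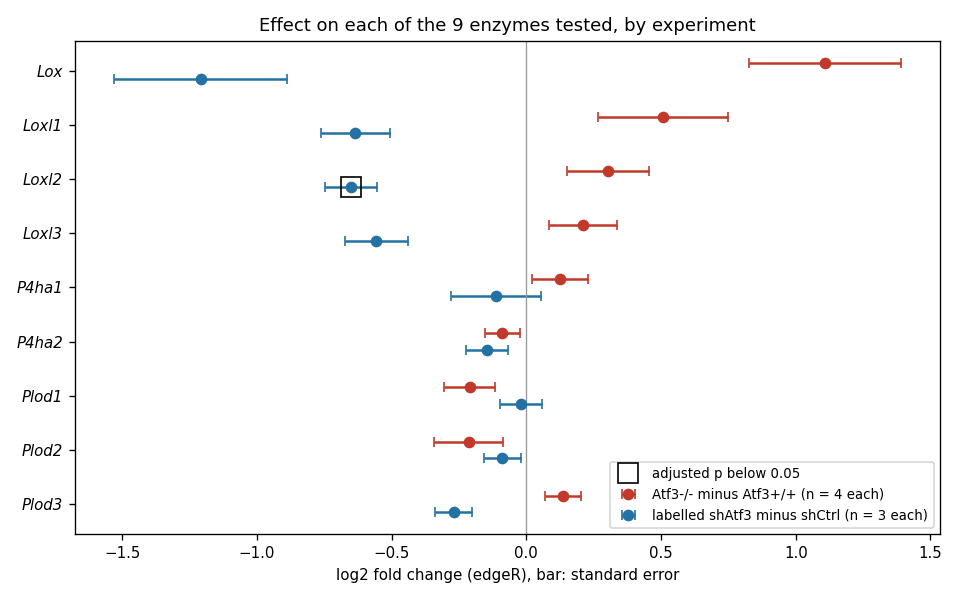
Log2 fold change of the 9 enzymes tested, Atf3-/- minus Atf3+/+ (red, n = 4 each) and labelled shAtf3 minus labelled shCtrl (blue, n = 3 each), with standard errors from edgeR as bars. The square marks the adjusted p below 0.05, Loxl2 in the AAV experiment at -0.65; the lysyl oxidases lie on opposite sides of 0 in the 2 experiments, and P4ha2, Plod1 and Plod2 lie below 0 in both.

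Collagen chains, the substrates of these enzymes, were examined next. Col1a1 and Col3a1, chains of the main fibrillar collagens, were called lower in the AAV experiment, with log2 fold changes of -0.84 (SE 0.11, adjusted p = 0.0293) and -1.05 (SE 0.16, adjusted p = 0.0328), as were Col1a2 (-0.82) and Col5a1 (-0.65). Each of these calls was lost when any of the hearts labelled shAtf3 or labelled shCtrl replicate 2 was left out (adjusted p up to 0.159 for Col1a1 and Col1a2, 0.178 for Col3a1 and 0.167 for Col5a1). The 6 fibrillar chains tested had a median of -0.83, and in the knockout experiment the 7 tested had a median of 0.55, with 5 at an unadjusted p below 0.05, none called by edgeR and 3 called by DESeq2 (Col1a1, Col1a2 and Col3a1). In the interaction edgeR called Col1a1 (1.47, adjusted p = 0.0348), Col1a2 (1.30, adjusted p = 0.0199) and Col3a1 (1.76, adjusted p = 0.0140), with 0.166% of all genes. These calls rest on the titles, since 0 genes were called with the AAV groups exchanged. Without labelled shAtf3 replicate 2 the interaction called 0 genes as well. Of 13 elastic fibre genes, Mfap4 was called lower in the AAV experiment (-1.15, adjusted p = 0.0137, up to 0.143 with a heart left out), limma-trend called 2 and DESeq2 called 9, all lower, and the medians were -0.48 (AAV) and 0.35 (knockout). Eln, the elastin gene, was at 38.0 ± 11.01 and 18.1 ± 4.23 CPM (SD, n = 3; adjusted p = 0.0772) and at 33.4 ± 12.8 and 55.4 ± 10.6 CPM (SD, n = 4; adjusted p = 0.423).

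Enzyme reads were therefore also set against collagen reads, as a percent of the summed CPM of Col1a1, Col1a2 and Col3a1. P4ha1 and P4ha2 together came to 16.7% ± 1.73 of these in Atf3+/+ and 11.1% ± 1.60 in Atf3-/- hearts (SD, n = 4), and to 10.6% ± 1.65 and 18.5% ± 1.77 in hearts labelled shCtrl and shAtf3 (SD, n = 3). Neither pair of groups overlapped. The 9 fibrillar chains listed, summed, did not overlap between the knockout groups either (626 to 785 and 919 to 1365 CPM). Nor did they between the AAV groups (1010 to 1502 and 598 to 719 CPM). A gene with even reads can thus separate the groups on this scale through collagen alone. The share of all genes that do so was not computed. The lysyl hydroxylases, with both entries of Plod1, came to 28.2% ± 2.59 and 17.3% ± 2.60 in the knockout experiment and to 16.3% ± 2.65 and 29.3% ± 1.60 in the AAV experiment, again without overlap. The lysyl oxidases came to 16.8% ± 2.63 and 15.2% ± 1.31, which overlapped, and to 14.1% ± 0.780 and 17.1% ± 1.41, which did not. The summed hydroxylase reads themselves overlapped between groups, at 99.0 ± 9.36 and 101.3 ± 5.45 CPM for P4ha1 with P4ha2 in the knockout experiment and 106 ± 13.5 and 97.6 ± 12.1 CPM in the AAV experiment. Set against the summed fibroblast markers instead, the lysyl oxidases went the other way in the AAV experiment, at 4.13% ± 0.674 (3.64% to 4.90%) in hearts labelled shCtrl and 3.40% ± 0.239 (3.15% to 3.62%) in those labelled shAtf3 (SD, n = 3), again without overlap. In the knockout experiment they came to 3.56% ± 0.701 and 4.42% ± 0.684 of the fibroblast marker reads (SD, n = 4), which overlapped. The hydroxylases set against these markers overlapped in the knockout experiment, at 3.18% to 4.12% and 2.97% to 3.31% for P4ha1 with P4ha2 and at 5.16% to 6.88% and 4.38% to 5.38% for the lysyl hydroxylases. In the AAV experiment they did not, at 2.95% to 3.16% and 3.17% to 4.24%, and at 4.29% to 5.10% and 5.51% to 6.43%. No test was run on these ratios.

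**Figure D5:**
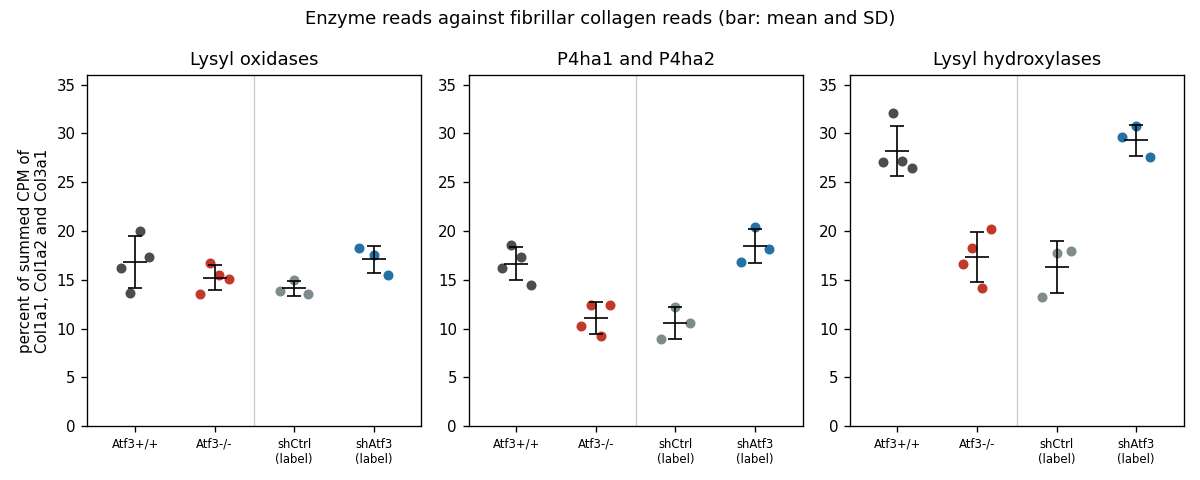
Summed CPM of the lysyl oxidases, of P4ha1 with P4ha2, and of the lysyl hydroxylases (with both entries of Plod1) as a percent of the summed CPM of Col1a1, Col1a2 and Col3a1, with 1 point per heart, the mean and the SD. For both kinds of hydroxylase the Atf3-/- hearts lie below the Atf3+/+ hearts and the hearts labelled shAtf3 above those labelled shCtrl, while the lysyl oxidase ratios lie between 13.6% and 20.0% in all 14 hearts. The collagen reads in the denominator differ between groups too, so a gene with even reads can separate them on this scale.

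Other genes of collagen modification and assembly were listed beside the members. Of 31 such genes 30 were tested in the knockout experiment, where none was called by edgeR and 2, Colgalt2 and Sparc, by DESeq2, 4 had an unadjusted p below 0.05 as higher and 1 as lower, and the median log2 difference was 0.05. Among the AAV hearts 29 were tested, and 3 were called by edgeR and by limma-trend and 6 by DESeq2 (with Pcolce, Pcolce2 and Sparc), all lower. Adamts2, which removes the procollagen amino-propeptide, was at 55.3 ± 4.02 and 31.2 ± 2.82 CPM (SD, n = 3; -0.83, adjusted p = 0.0137). Bmp1, which removes the carboxy-propeptide and also processes pro-lysyl oxidase, was at 35.6 ± 0.511 and 26.9 ± 1.47 CPM (-0.40, adjusted p = 0.0415). P3h3, a prolyl 3-hydroxylase family member found with lysyl hydroxylase, was at 21.9 ± 1.51 and 14.7 ± 0.846 CPM (-0.58, adjusted p = 0.0299). All 3 calls were lost when single hearts were left out, with adjusted p-values up to 0.108 for Adamts2, 0.202 for Bmp1 and 0.159 for P3h3. In total 12 of the 29 had an unadjusted p below 0.05 as lower and 1 as higher, and the median was -0.16.

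The remaining named genes of this list did not pass the test in edgeR. Of them DESeq2 called Pcolce in the AAV comparison and Crtap in the interaction. Loxl4, a lysyl oxidase outside the member list, had log2 fold changes of 0.41 (knockout) and -0.10 (AAV). Serpinh1, the collagen chaperone Hsp47, had 0.21 and -0.04, and Pcolce, which enhances removal of the carboxy-propeptide, 0.17 and -0.41 (AAV adjusted p = 0.178, and 0.0092 to 0.469 over the alternatives). Crtap and P3h1, partners in the prolyl 3-hydroxylase complex, had 0.24 and -0.19, and 0.10 and -0.14. Colgalt1, which adds galactose to hydroxylysine, had 0.01 and -0.12, and Fkbp10, a chaperone with which lysyl hydroxylase works, -0.02 and -0.01. Ndufs6, knocked down in every group, was at 2.34 to 3.79 CPM in the 14 hearts.

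Prolyl and lysyl hydroxylase genes are textbook targets of hypoxia-inducible factor 1 (HIF-1), and their enzymes need oxygen and 2-oxoglutarate as do the HIF hydroxylases. The 5 HIF hydroxylase genes listed had median log2 fold changes of -0.03 (knockout) and -0.10 (AAV), and 13 HIF-1 target genes outside the matrix 0.05 and -0.11, with none called by edgeR in either and 1, in the AAV experiment, by DESeq2 (Bnip3, lower). At an unadjusted p below 0.05 there were 1 of 5 and 1 of 13 in the knockout experiment, and 1 of 5 and 2 of 13 in the AAV experiment. RefSeq promoter sequences (GRCm38.p6, 250 bases before to 50 after the start of the gene) were at hand for 5 of the 10 members, P4ha1, P4ha2, P4ha3, Plod1 and Plod3. They were searched on both strands for ACGTG and GCGTG, the cores of the hypoxia response element, for TGACGTCA, the cyclic AMP response element that Atf3 family proteins bind, and for TGANTCA, the AP-1 site. ACGTG and TGACGTCA share the letters ACGT, but neither holds the other. ACGTG or GCGTG occurred in 43.8% of 32851 promoters and in 4 of the 5 members, whereas TGACGTCA (1.79% of promoters) and TGANTCA (7.81%) occurred in none of the 5.

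The promoters of 4 of these genes are shown to let the hypoxia element letters be seen in hydroxylases whose groups overlapped in both experiments (P4ha1, P4ha2 and Plod1) and in Plod3, whose AAV groups did not overlap. Capitals mark each match of ACGTG or GCGTG in either direction, so that CACGT and CACGC are matches on the other strand. P4ha1 is chr10:59323046-59323345 on the plus strand, P4ha2 chr11:54100674-54100973 on the plus strand, Plod1 chr4:147936727-147937026 on the minus strand and Plod3 chr5:136986769-136987068 on the plus strand, each printed 5′ to 3′.
P4ha1: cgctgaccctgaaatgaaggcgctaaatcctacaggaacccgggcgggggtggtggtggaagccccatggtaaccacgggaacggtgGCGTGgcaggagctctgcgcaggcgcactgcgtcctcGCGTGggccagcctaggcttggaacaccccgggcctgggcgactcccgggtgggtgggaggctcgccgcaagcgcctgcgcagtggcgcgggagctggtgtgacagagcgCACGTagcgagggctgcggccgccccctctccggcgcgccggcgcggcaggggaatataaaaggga
P4ha2: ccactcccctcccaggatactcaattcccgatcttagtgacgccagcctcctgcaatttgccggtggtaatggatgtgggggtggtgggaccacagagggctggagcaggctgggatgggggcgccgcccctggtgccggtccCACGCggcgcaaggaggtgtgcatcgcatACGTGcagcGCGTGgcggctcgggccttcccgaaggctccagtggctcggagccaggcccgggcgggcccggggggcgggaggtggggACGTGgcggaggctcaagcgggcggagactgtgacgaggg
Plod1: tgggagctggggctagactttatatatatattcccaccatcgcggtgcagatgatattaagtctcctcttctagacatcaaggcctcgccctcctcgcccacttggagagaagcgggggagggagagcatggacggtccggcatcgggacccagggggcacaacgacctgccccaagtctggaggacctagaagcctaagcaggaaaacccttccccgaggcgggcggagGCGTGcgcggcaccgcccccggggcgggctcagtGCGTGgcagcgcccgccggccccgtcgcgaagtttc
Plod3: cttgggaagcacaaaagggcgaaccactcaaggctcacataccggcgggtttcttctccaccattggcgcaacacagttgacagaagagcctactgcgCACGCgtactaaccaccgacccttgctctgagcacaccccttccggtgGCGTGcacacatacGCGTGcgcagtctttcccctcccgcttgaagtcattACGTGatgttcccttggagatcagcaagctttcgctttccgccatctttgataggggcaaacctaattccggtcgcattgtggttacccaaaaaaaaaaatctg
P4ha1 held 3 matches, P4ha2 held 4, Plod1 held 2 and Plod3 held 4. The P4ha3 promoter held none of the 4 motifs.

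The genes whose pattern over the 14 hearts was most like each member were found by Pearson's r of log2 CPM after the mean of each experiment was subtracted, among 11807 candidates. The hearts share groups, depth and dissection, so these values describe likeness only. Lox was most like Tmem45a (r = 0.98, rho = 0.99), Loxl1 most like Arhgef40 (0.99, rho = 0.996), Loxl2 most like Fstl1 (0.96, rho = 0.94) and Loxl3 most like Emp1 (0.97, rho = 0.94). Plod3 was most like Col1a2 (0.97, rho = 0.97), while P4ha1 was most like Pakap (0.91, rho = 0.94), Plod1 like Nf2 (0.92, rho = 0.89), Plod2 like Dnajc2 (0.90, rho = 0.76) and P4ha2 like Abcc4 (0.84, rho = 0.77). For the mean of the members the 5 nearest were Cilp, Col5a1, Col8a1, Fstl1 and Col16a1 (r = 0.91 to 0.93). Among the members themselves Loxl2 and Loxl3 were nearest (r = 0.98), Plod3 lay between 0.81 and 0.91 with each lysyl oxidase, and Plod1 lay between -0.40 and -0.03 with them. The values of Plod1, also that with Nf2, come from its first entry alone. The level of that entry is uncertain in the knockout experiment.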

How the data were processed

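Whole-heart RNA of 14 female FS6KD mice had been sequenced from stranded poly(A) libraries. Per the labels, reads were assigned on GRCm38.p6 with featureCounts 2.0.0. The aligner and strand setting are not given in the sources used here. The authors deposited estimated counts per gene and heart, not normalised and not pooled; 19.3% to 24.4% of values were not whole, although the design assumed whole counts, so values were rounded and the count test was kept. Genes above 1 CPM in at least 1 library were tested with edgeR 4.0.16 (R 4.3.3, TMM, quasi-likelihood, Benjamini-Hochberg) within each experiment, on the replicates as titled, with an interaction over both. SE is the log2 fold change divided by the root of F. The 95% intervals of fold changes are 1.96 SE wide on each side, an approximation that is too narrow for groups of 3 or 4. That of Plod1 in the knockout comparison, -0.397 to -0.025, left out 0 at an unadjusted p of 0.053 (edgeR). No source says that hearts of a group were independent in litter or batch, so p-values measure the spread between these hearts. Alternatives were library size or RLE scaling, other filters, DESeq2 1.42.0, limma 3.58.1, depth, a replicate block (also by description number, added after seeing the data), merged second entries (2379 listed, 2.40% to 2.59% of counts) and leaving out hearts. The fit was tested on simulated counts. Exons came from GENCODE, and 40017 of 42396 symbols, with 10 of 10 members, matched RefSeq. The members, the lists and the naming rule (members, fixed genes, list genes called, nearest gene by r with mean log2 CPM above 1) were chosen with earlier results of these data known. The authors' titles set the groups.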

Additional observations from a re-analysis of the deposited data

Results flagged for a closer look

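Loxl1 in Atf3-/- hearts was the 1 value of a member that stood apart from its group. Replicate 3 was at 104 CPM and the other hearts at 67.5, 73.1 and 69.8 CPM, so that its gap to the nearest heart was 0.846 of the whole range of the group, above Dixon's critical value for groups of 4. Groups of 3 were not examined in this way, and about 1 in 20 such groups passes the limit by chance. Without that heart the log2 difference of Loxl1 in the knockout comparison was 0.34, against 0.51 with it, and edgeR called it in neither case.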

How the results depend on the processing

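The members called in the AAV comparison numbered 1 and were 5 with no filter on low counts (Lox, Loxl1, Loxl2, Loxl3 and P4ha3), 3 with DESeq2 and 0 to 4 when a heart was left out, 4 of them without labelled shCtrl replicate 3 and 0 without any other. In the knockout comparison 0 members were called, 1 with DESeq2 (Lox) and 0 under the other settings. In the interaction 0 were called, 3 with library size alone (Lox, Loxl2 and Plod3), 1 with no filter (Lox), 5 with DESeq2 and 0 to 4 when a heart was left out (4 without Atf3+/+ replicate 3, 2 without Atf3-/- replicate 4). The levels per length moved by more than 1 SD in 18 of 40 cases with the longest transcript.

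By the replicate numbers of the titles, same-numbered hearts correlated at 0.27, 0.06, 0.13 and 0.20 in the knockout and at -0.08, 0.29 and 0.09 in the AAV experiment, and not every heart correlated best with its own number. The short descriptions number the knockout hearts differently. They leave 3 same-numbered pairs, replicates 1, 3 and 4 of the titles, at 0.27, 0.13 and 0.20, so whether knockout hearts were paired is not settled. With these 3 pairs as a replicate block, added after seeing the data, 0 members were called (Lox 0.81, adjusted p = 0.377), as without the block on the same 6 hearts (0.84, adjusted p = 0.657). With the titles' numbers as a replicate block 0 members were called in the AAV comparison (Loxl2 at an adjusted p of 0.0789) and 20 genes in place of 82.

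Over all genes the AAV comparison called 82, 304 with no filter, 308 with DESeq2 and 1 to 285 when a heart was left out, and the knockout comparison 0, 2 with no filter, 208 with DESeq2, 8 within the deeper hearts and 0 to 15 when a heart was left out. The interaction called 26, 205 with library size alone, 61 with no filter, 669 with DESeq2, 48 with limma-trend, 56 with the replicate block, 43 with second entries merged and 0 to 168 when a heart was left out. The causes were not tested.

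Of 513 member values under alternatives, 476 kept direction and call, 25 gained and 6 lost the call, and 6 turned sign. In the knockout comparison Plod2 was 0.000674 within the shallower hearts, Fkbp10 0.045 with library size alone and 0.093 within the shallower hearts, Colgalt1 -0.0019, Pcolce -0.00796, Comp -0.28 and Ccn2 -0.42 within the deeper hearts, and Fkbp10 in the AAV comparison 0.00079 with no filter. In the 3 pairs with and without the block Colgalt1 was -0.0016 and -0.00092, Fkbp10 0.025 and 0.021, Comp -0.21 and -0.088, and Ccn2 -0.34 and -0.34. With a heart left out, knockout values ran from -0.17 to 0.24 for Ccn2, -0.094 to 0.049 for Fkbp10, -0.0083 to 0.038 for Colgalt1, -0.0011 to 0.050 for P4hb and -0.044 to 0.70 for Comp, AAV values from -0.17 to 0.049 for Serpinh1, -0.22 to 0.15 for Fkbp10, -0.091 to 0.028 for Plod1, -0.13 to 0.038 for its second entry, -0.25 to 0.15 for Loxl4 and -0.29 to 0.0095 for P4ha1, and the interaction of P4ha2 from -0.0035 to 0.11. P4ha3 had 0 to 64 reads per heart, which limits the precision of its level.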

Other observations

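The levels of Lox, Loxl1, Loxl2 and Loxl3 in the libraries labelled shAtf3 (7.15, 43.9, 27.0 and 11.9 CPM on average, n = 3) lay nearer to those in Atf3+/+ hearts (7.06, 55.1, 26.7 and 12.5 CPM, n = 4) than to those in Atf3-/- hearts (15.4, 78.5, 33.0 and 14.5 CPM, n = 4). The libraries labelled shCtrl were at 16.5, 68.1, 42.4 and 17.5 CPM. The 2 tables were normalised separately, and the levels were not tested across them.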
